A study of Mus musculus with 6 samples.

Results

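The expression of 9 genes that mark blood stem and progenitor cells, Kit, Flt3, Slamf1, Myb, Runx1, Gata2, Meis1, Mecom and Hlf, was examined in RNA of splenic endothelial cells. The genes were taken by symbol, and all 9 were found among the 23207 symbols of the deposited count table. All 9 also passed the filter on low counts, which kept 19745 genes. Blood cell production can move from bone marrow to the spleen under stress, and Kit-positive progenitors then lodge beside sinusoidal endothelium. In mice given an antisense oligonucleotide against Mlkl, Myb lay higher and Flt3 lower than in each control mouse, and the levels of the other 7 genes overlapped. Over all genes tested, 9.02% lay apart in the higher direction and 9.71% in the lower, so that 1 of 9 each way is close to the background. None of the 9 passed the threshold after adjustment over all genes tested, and in the same test Mlkl did not pass either.

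The libraries came from 6 mice that lacked Apoe, the gene of apolipoprotein E, whose loss makes a mouse strongly hypercholesterolaemic on a cholesterol-rich diet. For 8 weeks 3 mice (1603, 1604 and 1607) received the MLKL antisense oligonucleotide (ASO), a synthetic nucleic acid directed against the RNA of the necroptosis effector Mlkl, and 3 mice (1601, 1602 and 1608) a control ASO. All 6 were on a high cholesterol diet throughout. Age, sex, strain background and the isolation of the endothelial cells are not described in the labels.

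The libraries held 59988846 to 85724084 estimated counts with the MLKL ASO and 67699450 to 87776706 with the control ASO. Levels are given as CPM, a read count rescaled so that libraries of different depth can be compared, with totals adjusted by the TMM method for differences in RNA composition. Mlkl measured 3.74 to 7.53 CPM in MLKL ASO mice, against 30.7 to 38 CPM in control ASO mice. All 20 endothelial markers listed were detected, with Cldn5 at 842 to 1118 CPM in MLKL ASO mice and 646 to 1260 CPM in control ASO mice. Control mouse 1608 stood apart on the first principal component, which held 30.2% of the variance, with a coordinate of 92.0. Control mice 1601 and 1602 lay at -4.958 and 16.27. The MLKL ASO mice lay lower than every control, at -44.25 to -27.87. RNA of blood cells was present in all 6 libraries: summed CPM of 12 megakaryocyte markers lay at 1542 to 3275 in MLKL ASO mice and at 115 to 1789 in control ASO mice, with the 115 in mouse 1608. As these are bulk libraries, fewer cells of a type and less RNA per cell cannot be told apart.

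Haematopoietic stem cells renew themselves and give rise to progenitors of restricted fate. Kit and Flt3 are receptor tyrosine kinases that bind stem cell factor and Flt3 ligand on these cells, and Slamf1 (CD150) is a surface receptor used to sort stem cells. The other 6 genes encode transcription factors that set up or maintain the stem and progenitor state. Several are not specific to blood: adult endothelium also expresses Gata2, Mecom and Meis1, some vascular beds express Kit, and Runx1 acts in the haemogenic endothelium of the embryo, which gives rise to blood cells.

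Runx1 and Mecom are each transcribed from a distal and a proximal start that encode different proteins, and the count table adds the transcripts of a gene into 1 row. The sequences at these starts are shown because a change in the use of one start against the other would not be visible in that row. Each run gives 250 bases before and 50 bases after the start, 5′ to 3′ on the minus strand, from RefSeq on build GRCm38.p6. Capitals mark matches, on either strand, to TGTGGT (the core of a RUNX site) or TGACAG (the core of a MEIS site). The starts lie 129 kb apart for Runx1 on chromosome 16 and 497 kb apart for Mecom on chromosome 3.
Runx1 distal, chr16:92826025-92826324: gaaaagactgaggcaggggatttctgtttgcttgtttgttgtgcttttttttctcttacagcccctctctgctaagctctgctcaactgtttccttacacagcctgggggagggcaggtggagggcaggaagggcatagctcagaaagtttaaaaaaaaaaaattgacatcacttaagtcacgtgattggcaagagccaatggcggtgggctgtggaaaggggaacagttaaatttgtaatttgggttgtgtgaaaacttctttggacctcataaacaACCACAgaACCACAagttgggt
Runx1 proximal, chr16:92697280-92697579: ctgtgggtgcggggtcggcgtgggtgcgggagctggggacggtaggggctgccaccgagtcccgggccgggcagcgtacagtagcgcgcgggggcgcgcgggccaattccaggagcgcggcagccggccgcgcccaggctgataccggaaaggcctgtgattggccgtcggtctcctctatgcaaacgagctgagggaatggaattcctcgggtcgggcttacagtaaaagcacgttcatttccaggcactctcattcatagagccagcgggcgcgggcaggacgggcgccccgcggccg
Mecom distal, chr3:30509710-30510009: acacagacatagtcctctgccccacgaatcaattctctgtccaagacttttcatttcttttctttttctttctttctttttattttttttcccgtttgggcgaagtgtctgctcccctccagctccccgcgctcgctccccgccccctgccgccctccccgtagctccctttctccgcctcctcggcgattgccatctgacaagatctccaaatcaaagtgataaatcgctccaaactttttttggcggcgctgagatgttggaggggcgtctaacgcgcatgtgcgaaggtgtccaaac
Mecom proximal, chr3:30013155-30013454: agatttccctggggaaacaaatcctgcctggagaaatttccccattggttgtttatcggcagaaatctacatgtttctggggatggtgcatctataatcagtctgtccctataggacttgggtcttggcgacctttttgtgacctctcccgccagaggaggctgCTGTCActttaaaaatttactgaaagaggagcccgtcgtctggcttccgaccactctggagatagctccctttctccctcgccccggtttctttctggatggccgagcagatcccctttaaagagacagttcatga
The distal Runx1 start held 2 matches to the RUNX core and the proximal start held 0. The proximal Mecom start held 1 match to the MEIS core. All 9 genes matched RefSeq, with 13 starts in all, of which 2 held the RUNX core, 1 the MEIS core and 0 the GATA core AGATAA. Over all 32851 RefSeq starts, 16.8% held the RUNX core, 19.2% the MEIS core and 11.2% the GATA core. A match of letters is a description of the sequence and not a bound site.

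Among the 9 genes, 4 had a log2 fold change above 0 in MLKL ASO relative to control ASO mice (Myb, Slamf1, Meis1 and Runx1) and 5 had one below 0 (Flt3, Mecom, Gata2, Hlf and Kit). By edgeR's quasi-likelihood test with Benjamini-Hochberg adjustment over 19745 genes, 0 of 9 passed the threshold of 0.05, where 0.0101% of all genes tested passed. DESeq2, which called 2.81% of all genes, and limma-voom, which called 0.111%, also called 0 of the 9. Mlkl, the target itself, did not pass in edgeR, with a log2 fold change of -2.55 ± 0.27 (SE; edgeR adjusted p = 0.0655). It was called by DESeq2 (adjusted p = 1.13e-15) and by limma-voom (adjusted p = 0.0186). A gene that did not pass in edgeR therefore cannot be read as unchanged. At an unadjusted edgeR p under 0.05, 1 of 9 was lower (Flt3) and 0 were higher, where the shares over all genes were 6.96% lower and 4.89% higher. The values of the groups did not overlap for 1 gene that was higher (Myb) and 1 that was lower (Flt3), close to the shares over all genes given above. The median log2 fold change of the 9 genes was -0.16, beside -0.01 over all genes tested. Over the 14 alternative settings, adjusted p-values ranged from 0.163 to 0.703 for Flt3, 0.281 to 0.727 for Myb, 0.209 to 0.760 for Mecom and 0.479 to 0.961 for Kit. The median size of the change, without its sign, was 0.48 for the 9 genes and 0.26 for all genes tested. The sizes of the 9 genes depended in part on control mouse 1608. Without it the log2 fold changes were smaller in size for Myb (0.36), Slamf1 (0.25), Mecom (-0.33), Meis1 (0.20) and Gata2 (-0.19). They were larger in size for Flt3 (-0.95), Hlf (-0.25), Kit (0.21) and Runx1 (-0.14). The median size over all genes without that mouse was not computed.

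**Figure D1:**
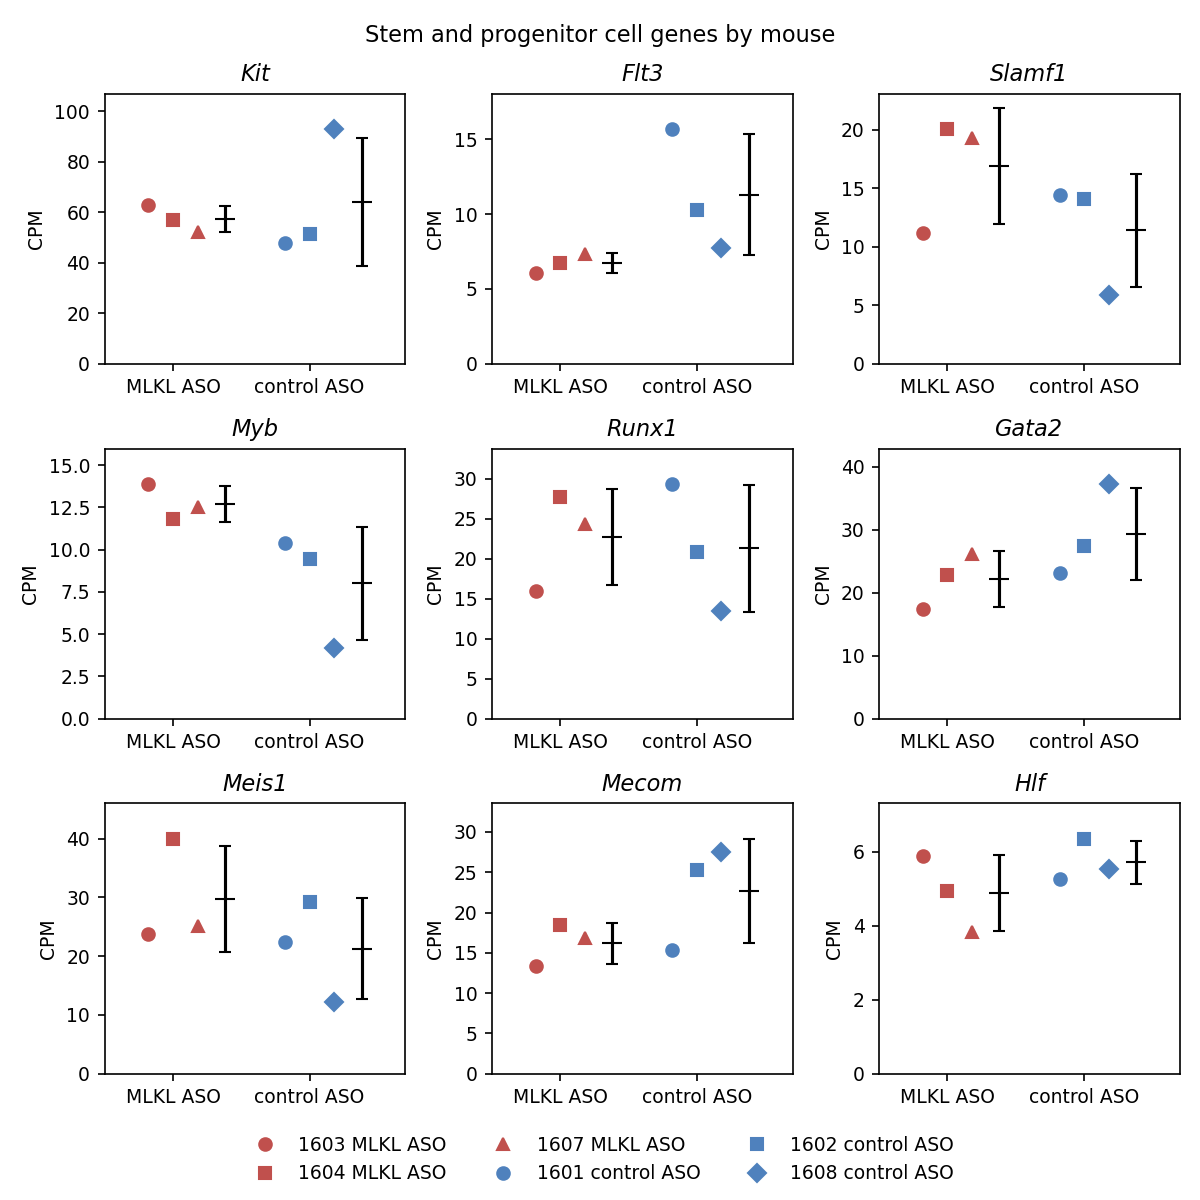
Level of each gene in CPM (vertical axes, from 0) in 3 MLKL ASO mice and 3 control ASO mice, 1 symbol per mouse, with the group mean and SD as a bar to the right of the points. The groups lie apart for Myb, at 11.8 to 13.9 CPM with the MLKL ASO against 4.16 to 10.4 CPM with the control ASO, and for Flt3, at 6.09 to 7.36 CPM with the MLKL ASO against 7.76 to 15.7 CPM with the control ASO, and overlap for the other 7 genes.

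Kit, the receptor for stem cell factor, measured 62.8, 57 and 52.3 CPM in MLKL ASO mice 1603, 1604 and 1607, against 48.0, 51.2 and 93.1 CPM in control ASO mice 1601, 1602 and 1608. Mouse 1608 had the highest level, while the other controls were just below the MLKL ASO mice. The means were 57.4 ± 5.26 CPM with the MLKL ASO and 64.1 ± 25.2 CPM with the control ASO (SD, n = 3 each). The log2 fold change was -0.16 ± 0.26 (SE; edgeR adjusted p = 0.846). Its direction rested on mouse 1608, since without it the log2 fold change was 0.21 ± 0.13 (SE; edgeR adjusted p = 0.479). Kitl, the ligand, which niche endothelium makes, showed a like order among the controls, with 470, 463 and 514 CPM in MLKL ASO mice and 317, 437 and 715 CPM in control ASO mice (log2 fold change -0.02 ± 0.27 SE).

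Flt3, a receptor of lymphoid and dendritic cell progenitors, measured 6.09, 6.75 and 7.36 CPM in MLKL ASO mice, against 15.7, 10.3 and 7.76 CPM in control ASO mice. Every MLKL ASO mouse lay below every control, though mice 1607 and 1608 were close. The means were 6.73 ± 0.638 CPM with the MLKL ASO and 11.3 ± 4.07 CPM with the control ASO (SD, n = 3 each), with a log2 fold change of -0.74 ± 0.28 (SE). Flt3 had the smallest p of the 9 genes (edgeR unadjusted p = 0.0298, adjusted p = 0.383), and the exact two-sided permutation test gave p = 0.1, which is the lowest value this design of 3 against 3 can reach. Without control mouse 1601, which had the highest level, the log2 fold change was -0.44, and without mouse 1608 it was -0.95 (edgeR adjusted p = 0.415 and 0.165). Flt3l, the ligand, also lay lower in every MLKL ASO mouse, at 19.2, 18.1 and 13.9 CPM, against 25.4, 30.9 and 20.5 CPM in controls (log2 fold change -0.58 ± 0.20 SE, edgeR adjusted p = 0.372).

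Dendritic cells keep Flt3 as they mature. The summed level of 11 dendritic cell markers other than Flt3 was 303 to 370 CPM in MLKL ASO mice and 417 to 662 CPM in control ASO mice, with the highest value in mouse 1601, as for Flt3. Most of that sum came from 2 genes that other cells also express. Ccr7, a chemokine receptor that naive lymphocytes carry too, measured 142 to 210 CPM in MLKL ASO mice and 211 to 481 CPM in control ASO mice, and Zbtb46, which endothelium also expresses, 107 to 109 CPM in MLKL ASO mice and 92.7 to 158 CPM in control ASO mice. The mean log2 CPM of the 11 markers overlapped between the groups, and 8 of 11 overlapped singly. Of these markers 10 of 11 had a log2 fold change below 0, with a median of -0.53, or -0.33 without mouse 1601, and none was at 0 in all libraries. Summed T cell markers were likewise highest in mouse 1601, at 753 CPM. They lay at 214 to 256 CPM in MLKL ASO mice and at 315 CPM in the lowest control. The 13 markers had a median of -1.18 on the log2 scale, or -0.71 without mouse 1601 and -1.42 without mouse 1608. All 13 were below 0 at an unadjusted edgeR p under 0.05, and 12 of 13 lay apart lower, with 0 called. Over all genes tested, 6.96% had such a p and 9.71% lay apart lower. For 12 B cell markers the summed level was 893 to 1425 CPM in MLKL ASO mice and 1249 to 2803 CPM in control ASO mice, with a median of -0.71. For 12 macrophage markers it was 1122 to 1442 CPM in MLKL ASO mice and 911 to 1782 CPM in control ASO mice, with a median of -0.06. Both sums were highest in mouse 1601, and without it the medians were -0.33 for B cell markers and 0.45 for macrophage markers. Of both lists 0 markers were called. Their part in the Flt3 difference was not tested.

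Slamf1, also carried by megakaryocytes and activated lymphocytes, measured 11.2, 20.1 and 19.3 CPM in MLKL ASO mice, against 14.4, 14.1 and 5.84 CPM in control ASO mice. The groups overlapped through mouse 1603, and mouse 1608 was the lowest by a wide margin. The means were 16.9 ± 4.94 CPM with the MLKL ASO and 11.4 ± 4.83 CPM with the control ASO (SD, n = 3 each), and the log2 fold change was 0.56 ± 0.38 (SE; edgeR adjusted p = 0.600). Without mouse 1608 the log2 fold change was 0.25.

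Myb, a factor that progenitors need in order to proliferate, measured 13.9, 11.8 and 12.5 CPM in MLKL ASO mice, against 10.4, 9.46 and 4.16 CPM in control ASO mice. Every MLKL ASO mouse lay above every control, and mouse 1608 was far below the other 5. The means were 12.7 ± 1.09 CPM with the MLKL ASO and 8.0 ± 3.36 CPM with the control ASO (SD, n = 3 each), with a log2 fold change of 0.67 ± 0.33 (SE) and an edgeR adjusted p of 0.473. The exact two-sided permutation test gave p = 0.1 here too. Without mouse 1608 the log2 fold change was 0.36 ± 0.17 (SE), and without mouse 1601 it was 0.89 (edgeR adjusted p = 0.376 and 0.336).

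Genes of cycling cells and markers of erythroid and early granulocyte cells, lineages whose immature cells express Myb, varied among the same mice. Summed CPM of 16 cell cycle genes was 1782, 1882 and 1328 in MLKL ASO mice 1603, 1604 and 1607, against 1463, 880 and 688 in control ASO mice 1601, 1602 and 1608. All 16 lay above 0, with a median log2 fold change of 0.84 (0.61 to 1.24 as single mice were left out), 0 of them were called, and 15 were lowest in mouse 1608. Of 15 erythroid markers 15 lay above 0 with a median of 0.80 (0.41 to 1.24 as single mice were left out), at summed levels of 1437 to 3113 CPM in MLKL ASO mice and 872 to 2191 CPM in control ASO mice, with 0 called. The 9 of 10 early granulocyte genes that were analysed, led by myeloperoxidase (Mpo), had a median of 0.84, which ranged from 0.09 to 2.10 as single mice were left out. Their summed level was 282 to 912 CPM with the MLKL ASO and 82.3 to 697 CPM with the control ASO. That sum included Camp and Ltf, granule genes of a later stage than Mpo. Camp lay at 93.7 to 217 CPM with the MLKL ASO and 23.3 to 233 CPM with the control ASO. Ltf lay at 63.2 to 142 CPM with the MLKL ASO and 26.2 to 166 CPM with the control ASO. The part of cycling, erythroid and granulocyte cells in the Myb difference was not tested.

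Runx1, which stem cells need to arise in the embryo, measured 16.0, 27.7 and 24.4 CPM in MLKL ASO mice, against 29.4, 20.8 and 13.5 CPM in control ASO mice. The ranges of the groups overlapped almost fully. The means were 22.7 ± 6.03 CPM with the MLKL ASO and 21.3 ± 7.97 CPM with the control ASO (SD, n = 3 each), with a log2 fold change of 0.09 ± 0.31 (SE) and an edgeR adjusted p of 0.939. Its sign depended on single mice, with -0.08 without mouse 1604, -0.14 without mouse 1608 and 0.39 without mouse 1601. The authors' deposited table gives a log2 fold change of -0.32 ± 0.40 (SE) for this gene (adjusted p = 0.869), the only one of the 9 whose sign there differs from that computed here. The cause was not tested.

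Gata2, a zinc finger factor of stem cells, mast cells and endothelium, measured 17.4, 22.8 and 26.2 CPM in MLKL ASO mice, against 23.1, 27.4 and 37.3 CPM in control ASO mice. The groups overlapped, with mouse 1603 lowest and mouse 1608 highest. The means were 22.2 ± 4.42 CPM with the MLKL ASO and 29.3 ± 7.30 CPM with the control ASO (SD, n = 3 each), and the log2 fold change was -0.40 ± 0.23 (SE; edgeR adjusted p = 0.529). Without mouse 1608 the log2 fold change was -0.19, and without mouse 1601 it was -0.57.

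Mecom, a zinc finger factor that maintains long-term stem cells, measured 13.4, 18.4 and 16.8 CPM in MLKL ASO mice, against 15.4, 25.3 and 27.5 CPM in control ASO mice. Only control mouse 1601 lay within the range of the MLKL ASO group. The means were 16.2 ± 2.56 CPM with the MLKL ASO and 22.7 ± 6.46 CPM with the control ASO (SD, n = 3 each), with a log2 fold change of -0.49 ± 0.24 (SE) and an edgeR adjusted p of 0.479. Without mouse 1601 the log2 fold change was -0.72 ± 0.18 (SE; edgeR adjusted p = 0.209), and without mouse 1608 it was -0.33.

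Prdm16, the sister gene of Mecom and likewise a stem cell factor that arterial endothelium expresses, lay lower in every MLKL ASO mouse. It measured 5.81, 3.82 and 3.60 CPM there, against 7.77, 11.3 and 17.5 CPM in control ASO mice, with the highest level in mouse 1608. The log2 fold change was -1.47 ± 0.35 (SE) and did not pass the threshold (edgeR unadjusted p = 0.00344, adjusted p = 0.294).

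Meis1, a homeobox factor of stem cells and megakaryocytes, measured 23.8, 40.0 and 25.2 CPM in MLKL ASO mice, against 22.5, 29.2 and 12.2 CPM in control ASO mice. Mouse 1604 was highest and mouse 1608 lowest, and the groups overlapped through mouse 1602. The means were 29.7 ± 9.0 CPM with the MLKL ASO and 21.3 ± 8.59 CPM with the control ASO (SD, n = 3 each), and the log2 fold change was 0.48 ± 0.34 (SE; edgeR adjusted p = 0.618). Without mouse 1604 or without mouse 1608 the log2 fold change was 0.20. These are also the mice with the highest and the lowest summed level of the 12 megakaryocyte markers, at 3275 and 115 CPM. The same held for the summed erythroid markers (3113 and 872 CPM), early granulocyte genes (912 and 82.3 CPM) and cell cycle genes (1882 and 688 CPM). For all 12 megakaryocyte markers the log2 fold change was above 0, and the median was 1.04, or 0.53 without mouse 1608, and 0 were called. The part of any of these cells in the Meis1 difference was not tested.

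Hlf, a leucine zipper factor enriched in stem cells, had 327 to 526 estimated counts per library. It measured 5.88, 4.94 and 3.83 CPM in MLKL ASO mice, against 5.26, 6.35 and 5.52 CPM in control ASO mice. The groups overlapped, with mouse 1607 lowest. The log2 fold change was -0.23 ± 0.23 (SE; edgeR adjusted p = 0.735), and it was -0.08 without mouse 1607.

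**Figure D2:**
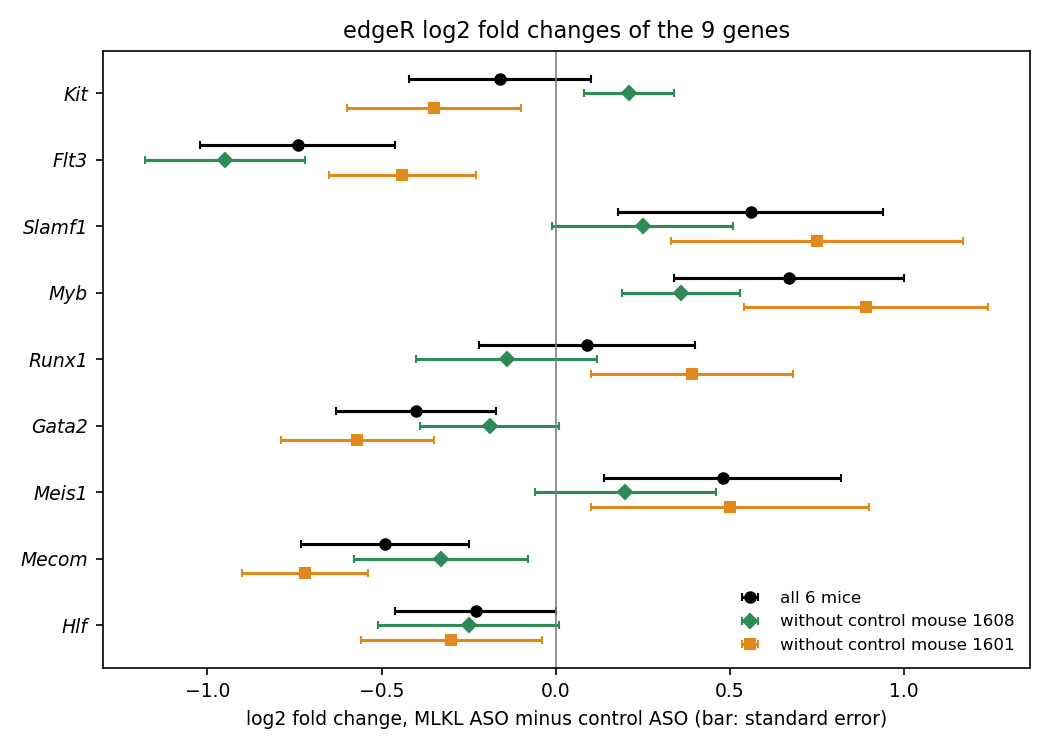
Log2 fold change of each gene, MLKL ASO minus control ASO (horizontal axis), with bars of 1 standard error, from edgeR with all 6 mice, without control mouse 1608 and without control mouse 1601. The value for Kit lies at -0.16 with all mice and at 0.21 without mouse 1608, that for Runx1 at 0.09 and -0.14, and those for Myb, Slamf1 and Meis1 come closer to 0 without mouse 1608.

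Control mouse 1608 held the highest level of Kit, Gata2 and Mecom and the lowest level of Myb, Slamf1, Meis1 and Runx1. Over all genes tested, mouse 1608 was the highest of the 6 mice in 21.9% and the lowest in 24.1%. In the same mouse the 20 endothelial markers had their highest summed level, 6967 CPM, against 3835 CPM in control mouse 1601, 5419 CPM in control mouse 1602 and 4737 to 5233 CPM in MLKL ASO mice. Of those markers 15 were highest in mouse 1608, while all 12 megakaryocyte markers, 9 of 15 erythroid markers and all 9 early granulocyte genes were lowest there. Of the genes that endothelium also expresses, Gata2, Mecom and Kit were highest in the mouse with the highest summed endothelial level, and Meis1 was lowest there. The part of this difference between libraries in the levels of the 9 genes was not tested.

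Mast cells and basophils express Kit or Gata2 as mature cells. Summed CPM of the 9 of 13 listed markers that were analysed was 59.3, 145 and 183 in MLKL ASO mice and 130, 110 and 68.6 in control ASO mice, so the groups overlapped. The lowest sums were those of mice 1603 and 1608. The mast cell protease gene Cpa3 measured 4.38 to 9.94 CPM in MLKL ASO mice and 1.94 to 9.50 CPM in control ASO mice. The median log2 fold change of these 9 markers was 0.04, or -0.21 without mouse 1608, with 0 called. Their part in the levels of Kit and Gata2 was not tested.

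**Figure D3:**
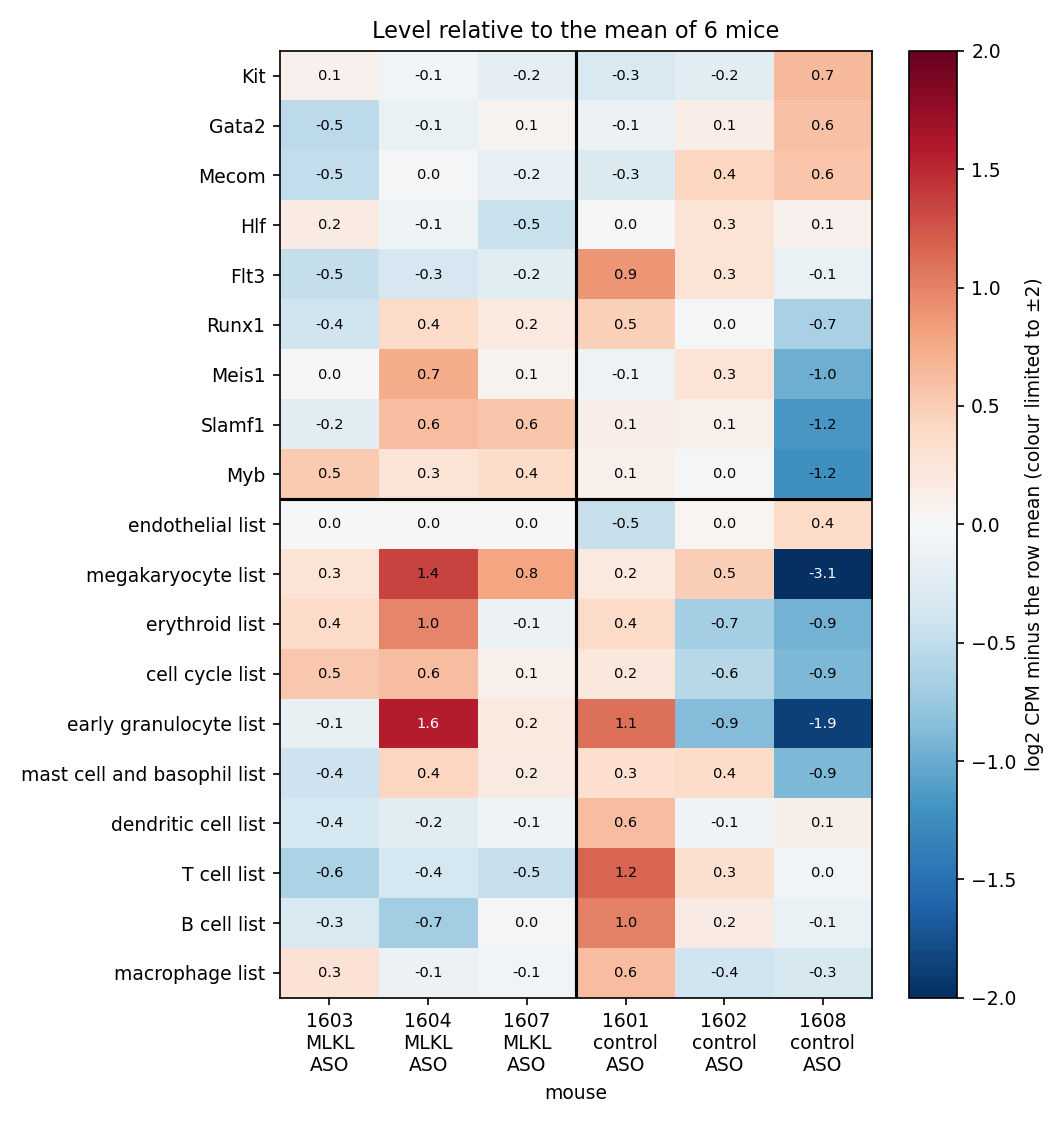
Level of the 9 genes (upper rows) and mean level of each marker list (lower rows) in each mouse, as log2 CPM minus the mean of the row over 6 mice, with MLKL ASO mice on the left. In mouse 1608, Kit, Gata2, Mecom and the endothelial list are above the row mean, and Myb, Slamf1, Meis1, Runx1 and the megakaryocyte list are below it.

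Among themselves, the 9 genes were compared by the root mean square distance between their log2 CPM, each centred on its mean over the 6 mice. Mecom and Gata2 were the closest pair (0.174 on the log2 scale), followed by Meis1 and Slamf1 (0.265), Kit and Gata2 (0.313), and Runx1 and Slamf1 (0.318). For Mecom, Gata2, Meis1 and Slamf1 the largest departure from the mean was in mouse 1608 (0.55, 0.58, -0.98 and -1.16). A search of 11220 genes with a mean of at least 5 CPM gave the 3 nearest patterns to each gene, over the same 6 mice. No background distance was computed, so how close a match arises by chance among so many genes is unknown. Rgs16, Chka and Lrp5 were nearest to Mecom (0.070 to 0.124), and Chka, Sbno2 and Atf7 to Gata2 (0.080 to 0.096). Kit was nearest to AW549877, Mtmr10 and Zkscan17 (0.054 to 0.065), and Hlf to Thra, Tspan17 and Rdh14 (0.064 to 0.069). Meis1 lay by Cd9, Mdm1 and Cysltr2 (0.131 to 0.153), and Slamf1 by Dtnbp1, Mdm1 and Lgalsl (0.114 to 0.170). For Myb they were Cenpw, Mt2 and Gstm2 (0.136 to 0.152), for Runx1 Cd300lf, BC064078 and Sla (0.061 to 0.126), and for Flt3 Ppfibp2, Tnfrsf18 and Lpxn (0.066 to 0.072).

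Levels were compared between genes per kilobase of the longest protein-coding transcript in GENCODE M21, whose match to the annotation behind the counts is unknown. Kit was the highest, at 10.9 ± 1.0 CPM per kilobase in MLKL ASO mice and 12.2 ± 4.81 in control ASO mice (SD, n = 3 each). Gata2 had 6.20 ± 1.24 in MLKL ASO mice and 8.19 ± 2.04 in control ASO mice. Slamf1 had 6.26 ± 1.83 in MLKL ASO mice and 4.24 ± 1.79 in control ASO mice, so that Gata2 and Slamf1 lay within their spread of each other in MLKL ASO mice. Meis1, Runx1, Myb and Mecom had means of 2.84 to 3.93 in MLKL ASO mice and 2.17 to 3.99 in control ASO mice, and did not separate from each other beyond their spread in controls. Flt3, with 1.84 ± 0.174 in MLKL ASO mice and 3.08 ± 1.11 in control ASO mice, was below them in MLKL ASO mice and among them in controls. Hlf was the lowest, at 0.865 ± 0.182 in MLKL ASO mice and 1.01 ± 0.101 in control ASO mice. The order rests on the choice of the longest transcript. Protein-coding transcripts ran from 619 to 5642 bases for Hlf and from 348 to 5692 bases for Mecom. For Runx1 they ran from 336 to 5861 bases and for Gata2 from 423 to 3571 bases.

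Among 93 other genes of these pathways that were tested, 0 were called higher and 0 lower. They came mainly from receptor signalling, the SLAM family with its adaptors, gene families of the 9, stem cell transcription factors and surface markers. Without adjustment, 13 of the 93 (14.0%) had an edgeR p under 0.05 with a lower mean and 1 (1.08%) with a higher mean. The shares over all genes were 6.96% lower and 4.89% higher. The 1 gene with a higher mean was Ctnnal1, at 17.7 to 22.2 CPM in MLKL ASO mice and 8.74 to 16.7 CPM in control ASO mice. Its log2 fold change was 0.68 ± 0.25 (SE; edgeR adjusted p = 0.380). Of the 13, Pik3cd, Stat5b, Ly9, Sh2d1a, Ikzf2, Cd27, Il7r, Meis3, Gata3 and Runx3 were highest in control mouse 1601. Flt3l was highest in mouse 1602, and Prdm16 and Meis2 in mouse 1608. Mouse 1601 also had the highest summed T cell and B cell markers, at 753 and 2803 CPM. The part of those cells in these counts was not tested. The groups did not overlap in 21.5% of the 93, where 18.7% of all genes tested lay apart. By direction, 15 (16.1%) lay apart lower and 5 (5.38%) higher, where 9.71% and 9.02% of all genes did. The median log2 fold change of the 93 was -0.15.

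Surface markers, cytokine receptors and a few other genes of stem and progenitor cells had a median log2 fold change of 0.13, with 12 of 22 above 0. The sign of that median depended on single mice, with -0.01 without mouse 1601, -0.04 without mouse 1607 and 0.23 without mouse 1608. Cd34, a sialomucin that endothelium also carries, measured 580, 449 and 658 CPM in MLKL ASO mice, against 261, 404 and 531 CPM in control ASO mice, and the ranges overlapped through mouse 1608. Ly6a (Sca-1), another marker shared with endothelium, measured 444, 406 and 491 CPM in MLKL ASO mice and 343, 371 and 432 CPM in controls. Their log2 fold changes were 0.50 and 0.23, with standard errors of 0.26 and 0.13 (edgeR adjusted p = 0.508 and 0.536). Cd93, a receptor of endothelium and early progenitors, was at 275 to 321 CPM in MLKL ASO mice and at 193 to 502 CPM in control ASO mice, with the highest level in mouse 1608.

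Transcription factors and a few other regulators of the stem and progenitor programme had 13 of 31 tested genes above 0. Their median was -0.14, or -0.10 to 0.00 as single mice were left out. Fli1, an ETS factor of blood and endothelium, measured 120 to 164 CPM in MLKL ASO mice and 132 to 146 CPM in control ASO mice. Klf1, the erythroid Krüppel-like factor, measured 170, 181 and 102 CPM in MLKL ASO mice, against 129, 86.4 and 45.4 CPM in controls, with the lowest level in mouse 1608. Nfe2, a factor of erythroid cells and megakaryocytes, measured 64.3, 118 and 57.8 CPM in MLKL ASO mice, against 54.7, 50.1 and 21.1 CPM in controls. The groups lay apart for Nfe2 but not for Klf1, and neither passed the threshold (edgeR adjusted p = 0.430 and 0.458).

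Receptor ligands and signalling genes had 6 of 18 above 0 and a median of -0.08, or -0.16 to -0.01 as single mice were left out. Ptpn6, the phosphatase SHP-1 that dampens Kit signals, measured 137 to 161 CPM in MLKL ASO mice and 126 to 305 CPM in control ASO mice, with the 305 in mouse 1601. In the same list Lyn, a kinase downstream of Kit, measured 96.5 to 119 CPM with the MLKL ASO and 83.8 to 122 CPM with the control ASO. The SLAM family, to which Slamf1 belongs, was listed with its adaptor genes, and that list had 3 of 10 above 0 and a median of -0.51. Ly9 lay at 35.4 to 44.8 CPM in MLKL ASO mice and 46.3 to 94.8 CPM in control ASO mice (log2 fold change -0.74 ± 0.28 SE, edgeR adjusted p = 0.383). Cd48, which stem cells lack and lymphocytes carry, lay at 35.8 to 38.8 CPM in MLKL ASO mice and 28.1 to 76.7 CPM in control ASO mice. Slamf6 lay at 28.3 to 35.9 CPM in MLKL ASO mice and 30.4 to 75.4 CPM in control ASO mice. For all 3 genes the highest control was mouse 1601, and without it the median of the list was -0.06. Slamf1 had the opposite sign to these genes, although that difference was not tested.

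Sister genes from the families of the 9, listed whatever their result, had 5 of 15 above 0 and a median of -0.50. Beside Gata2, the erythroid and megakaryocyte factor Gata1 measured 61.9, 95.0 and 41.3 CPM in MLKL ASO mice and 59.0, 43.9 and 15.3 CPM in controls. The T cell factor Gata3 lay lower in every MLKL ASO mouse, at 5.63 to 7.75 CPM, against 8.24 to 21.1 CPM in controls (log2 fold change -1.03 ± 0.34 SE, edgeR adjusted p = 0.364). Meis2 also lay lower in every MLKL ASO mouse, at 10.6 to 17.2 CPM, against 18.5 to 32.8 CPM in control ASO mice. Meis3 measured 4.19 to 4.58 CPM in MLKL ASO mice, against 5.69 to 9.13 CPM in control ASO mice, while Meis1 had a log2 fold change above 0. The log2 fold changes of Meis2 and Meis3 were -0.88 and -0.72 (edgeR adjusted p = 0.349 and 0.360).

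Runx3, a factor of lymphocytes and myeloid cells, also lay lower in every MLKL ASO mouse, at 4.35 to 5.67 CPM, against 6.78 to 9.84 CPM in controls (log2 fold change -0.62, edgeR adjusted p = 0.380). Runx2 lay at 1.63 to 2.08 CPM in MLKL ASO mice and 1.7 to 3.03 CPM in controls, and Cbfb, the common partner of the RUNX proteins, at 25.8 to 31.6 CPM in MLKL ASO mice and 19.9 to 27.0 CPM in controls. Mybl2, the Myb family member of cycling cells, measured 5.11 to 6.36 CPM in MLKL ASO mice and 2.37 to 7.06 CPM in controls, and Mybl1 0.861 to 1.5 CPM in MLKL ASO mice and 0.793 to 2.10 CPM in controls. Tef and Dbp, relatives of Hlf that follow the circadian clock, overlapped between the groups. Tef lay at 19.4 to 23.0 CPM in MLKL ASO mice and 17.4 to 22.3 CPM in controls, and Dbp at 5.20 to 9.94 CPM in MLKL ASO mice and 9.49 to 18.1 CPM in controls. The Kit family receptors Csf1r, Pdgfra and Pdgfrb had ranges that overlapped between the groups, with log2 fold changes of -0.62, 0.64 and -0.16.

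**Figure D4:**
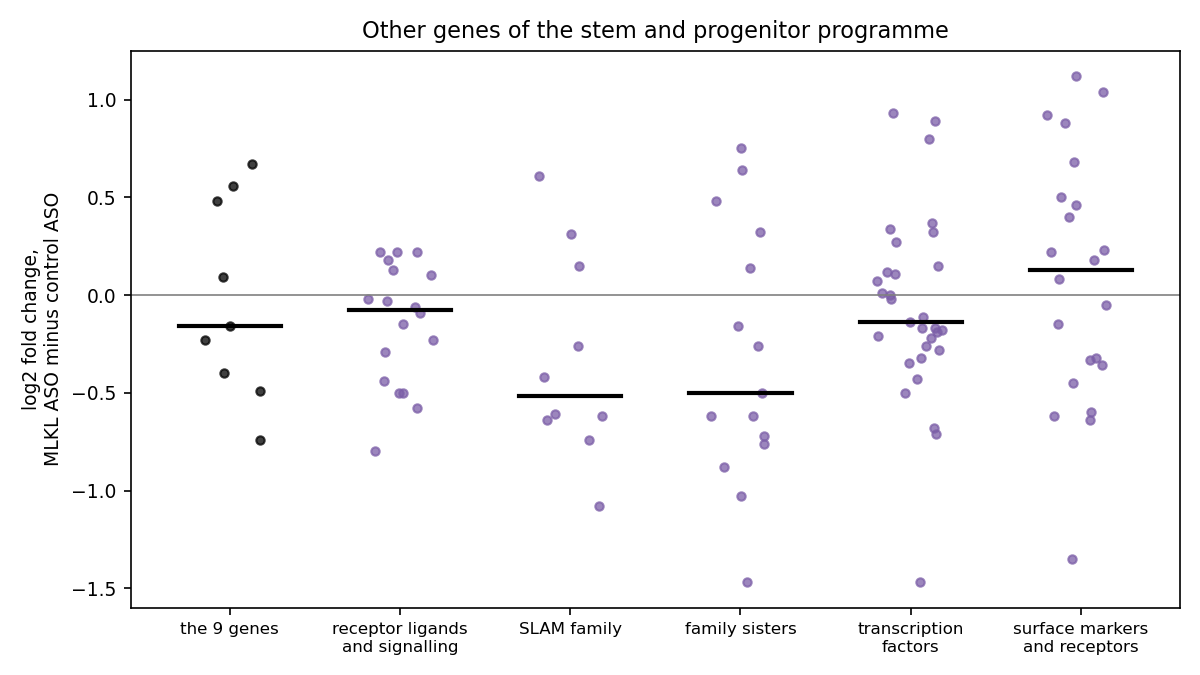
Log2 fold change of each gene tested, MLKL ASO minus control ASO (vertical axis), for the 9 genes and for 5 lists of related genes, 1 point per gene with the list median as a black line. The lowest median is -0.51, for the SLAM family with its adaptors (-0.06 without mouse 1601). The highest is 0.13, for the list of surface markers and receptors (-0.04 without mouse 1607). Single genes spread to both sides of 0 in each list.

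In the authors' deposited table, adjusted p-values of the 9 genes ran from 0.215 for Flt3 to 0.924 for Kit. The authors' deposited table gives log2 fold changes of -0.72 for Flt3 and 0.66 for Myb, with standard errors of 0.29 and 0.34.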

How the data were processed

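Splenic endothelial RNA of 6 mice was analysed at gene level. Per the submitters' processing notes, fastp 0.20.1, Salmon 1.3.0 and DESeq2 were used, on a build and annotation not given in the sources used here. The authors deposited estimated counts per gene symbol (69.3% of values not whole, at a tolerance of 1e-06), 4 of whose 23207 symbols are numbers. Salmon splits reads between similar transcripts, and transcripts of a gene are summed. The deposited DESeq2 table holds, per the file headers, a mean normalised signal, a log2 fold change with its standard error, a Wald score and p-values. Its direction was settled from the data: its log2 fold changes had the same sign as those computed here in 93.6% of 19728 genes.

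Estimated counts were rounded and tested in R 4.3.3 with edgeR 4.0.16 (default expression filter, TMM, two-sided quasi-likelihood test, Benjamini-Hochberg over all genes tested, threshold 0.05). The test was tested on simulated data, which held no outlying library such as that of mouse 1608. Log2 CPM carry a prior count of 2. Precision is that of 3 mice a group. The edgeR p-values set the difference between groups against the spread between mice, estimated with information shared across genes. Standard errors beside edgeR log2 fold changes were derived from that test and not estimated apart from it. Each is the size of the log2 fold change divided by the square root of the F statistic. Alternatives were other scalings and filters, robust fitting, DESeq2 1.42.0, limma-voom (limma 3.58.1) with sample weights, and leaving out each mouse.

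The 9 genes and all lists were chosen with earlier results of these data known, so no set test was run. The text names the 9 genes, Mlkl, Kitl, Flt3l, the sister genes, up to 3 genes with the highest mean CPM of other lists, and the 3 nearest patterns. It also names the related genes that had a lower or a higher mean at an unadjusted edgeR p under 0.05. Counts of the 9 genes were left out of the marker lists.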

Additional observations from a re-analysis of the deposited data

How the results depend on the processing

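None of the 9 genes passed the threshold under any of the 14 alternatives (0 called each time), and the lowest adjusted p was 0.163, for Flt3 in DESeq2. Of 126 log2 fold changes of these genes under alternatives, 122 kept their sign. The 4 that did not were Kit with limma-voom (0.08) and without mouse 1608 (0.21), and Runx1 without mouse 1604 (-0.08) and without mouse 1608 (-0.14). Leaving out single mice moved Kit between -0.35 and 0.21 and Runx1 between -0.14 and 0.39. The median of the 9 genes was 0.06 with limma-voom, against -0.16 in edgeR, and -0.30 to -0.08 as single mice were left out. The count of genes called in the whole table was 2 in edgeR, 4 with upper-quartile factors, 9 with library totals only, 22 with limma-voom and 521 with DESeq2, and 0 to 19 without single mice, the 19 without mouse 1608. The cause was not tested. No paired analysis was possible because mouse numbers do not recur between the groups. With 293 or more estimated counts of each of the 9 genes in every library, counting depth was above the filter throughout, and precision is limited by 3 mice a group.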
